A study of Homo sapiens with 6 samples.

Results

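The genes that build ribosomes in the nucleolus were followed in 786-O cells after knockdown of NFE2L3. They are 46 genes chosen by name, each a factor of RNA polymerase I transcription, of small nucleolar ribonucleoprotein particles (snoRNPs) or of pre-rRNA processing, and all 46 were found among the 56303 genes of the count table. The 786-O line is derived from clear cell renal cell carcinoma and has no functional VHL. The RNA-seq compared 3 libraries of cells given siRNA against NFE2L3 (siNFE2L3, labelled 48 h) with 3 libraries of cells given control siRNA (siControl, labelled 0 h), and the labels name no other treatment. The labelled time and the siRNA therefore cannot be told apart. The study's supplement lists siRNAs against NFE2L3, but the sources used here do not say which was given to these cells. The study says in general that its data come from independent trials, without naming separate cultures for these libraries, so p-values may cover technical spread alone. For siNFE2L3 replicates 2 and 3 the genotype label ends in another number (NFE2L4 and NFE2L5), while their titles and source names give NFE2L3, and they were taken as NFE2L3 knockdown.

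In the nucleolus, RNA polymerase I transcribes a long precursor that is cut and trimmed to the RNAs of the small (40S) and large (60S) ribosomal subunits. Guide RNAs in snoRNPs direct 2 kinds of modification, methylation by the box C/D particles and pseudouridylation by the box H/ACA particles, and stand-alone enzymes add further marks. NAT10 is the acetyltransferase that makes N4-acetylcytidine in RNA, including 18S rRNA and transfer RNA, and it is the enzyme the study set out to follow in clear cell renal cell carcinoma. NFE2L3 is a transcription factor of the cap'n'collar family, which binds DNA together with small MAF proteins. The comparison asks what happens to the ribosome assembly transcripts, NAT10 among them, when NFE2L3 is lowered.

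NFE2L3 itself was lower in all 3 knockdown libraries. It had 1087, 1075 and 1068 counts in the siNFE2L3 libraries, against 6171, 6508 and 6403 counts in the siControl libraries, which left it at 17.2% of its siControl level (log2 fold change -2.54, SE 0.0482, edgeR adjusted p = 3.98e-22). Total counts were 51828446 to 56806368 in siNFE2L3 and 53051297 to 57391929 in siControl libraries. Of 11 renal carcinoma markers, PAX8, KRT8, KRT18 and CDH2 fell, CA12 and EPAS1 rose, VIM, PAX2 and CUBN were not called, and CA9 and LRP2 were at or near 0. PAX8, a renal lineage transcription factor, averaged 217 CPM (counts scaled to a library of 1000000) in siNFE2L3 and 241 CPM in siControl cells, and CA12 averaged 169 CPM in siNFE2L3 and 150.1 CPM in siControl cells. Of 14 markers of leukocytes, endothelium and fibroblasts, 12 were at most 0.504 CPM in every library (PTPRC, CD3E and CDH5 among them), LUM was at 2.62 CPM in siNFE2L3 and 2.89 CPM in siControl cells, and CD68 was at 118 CPM in siNFE2L3 and 132 CPM in siControl cells. CPM are shares of a library, so fewer transcripts per cell and fewer cells that carry them cannot be told apart.

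NOLC1 stood out from the other nucleolar genes, and the remaining changes were small and went both ways. Of the 46 genes, 11 fell (23.9%) and 7 rose (15.2%) after NFE2L3 knockdown at an adjusted p under 0.05 (edgeR's quasi-likelihood test with Benjamini-Hochberg adjustment over all 19916 genes tested, used throughout). Among all tested genes 14% fell and 12.7% rose. With upper quartile scaling in place of TMM (trimmed mean of M-values), the scaling used otherwise, the split of the 46 genes turned round, with 10 lower and 13 higher, and so did that of all tested genes, with 12.2% lower and 14.6% higher. Of the 8731 tested genes at least as abundant as the lowest of the 46, 23.4% fell and 19% rose. The share of nucleolar genes that fell was close to that of these abundant genes, and the share that rose was below it. Their median log2 fold change was 0.01, with 23 genes above 0 and 23 below 0, against -0.0007 over all tested genes. The median size of the change, without its sign, was 0.10 on the log2 scale for the 46 genes, 0.11 for the abundant genes and 0.16 for all tested genes. None of the 46 reached a fold of 2 at an unadjusted p under 0.05, the cutoffs the authors used, which 0.377% of tested genes passed downwards and 0.723% upwards, and DESeq2 and limma-voom also gave 0. The counts of the 46 by role given in what follows rest on 2 to 13 genes each and are to be read beside these shares of all tested and of abundant genes, with no test between roles.

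**Figure D1:**
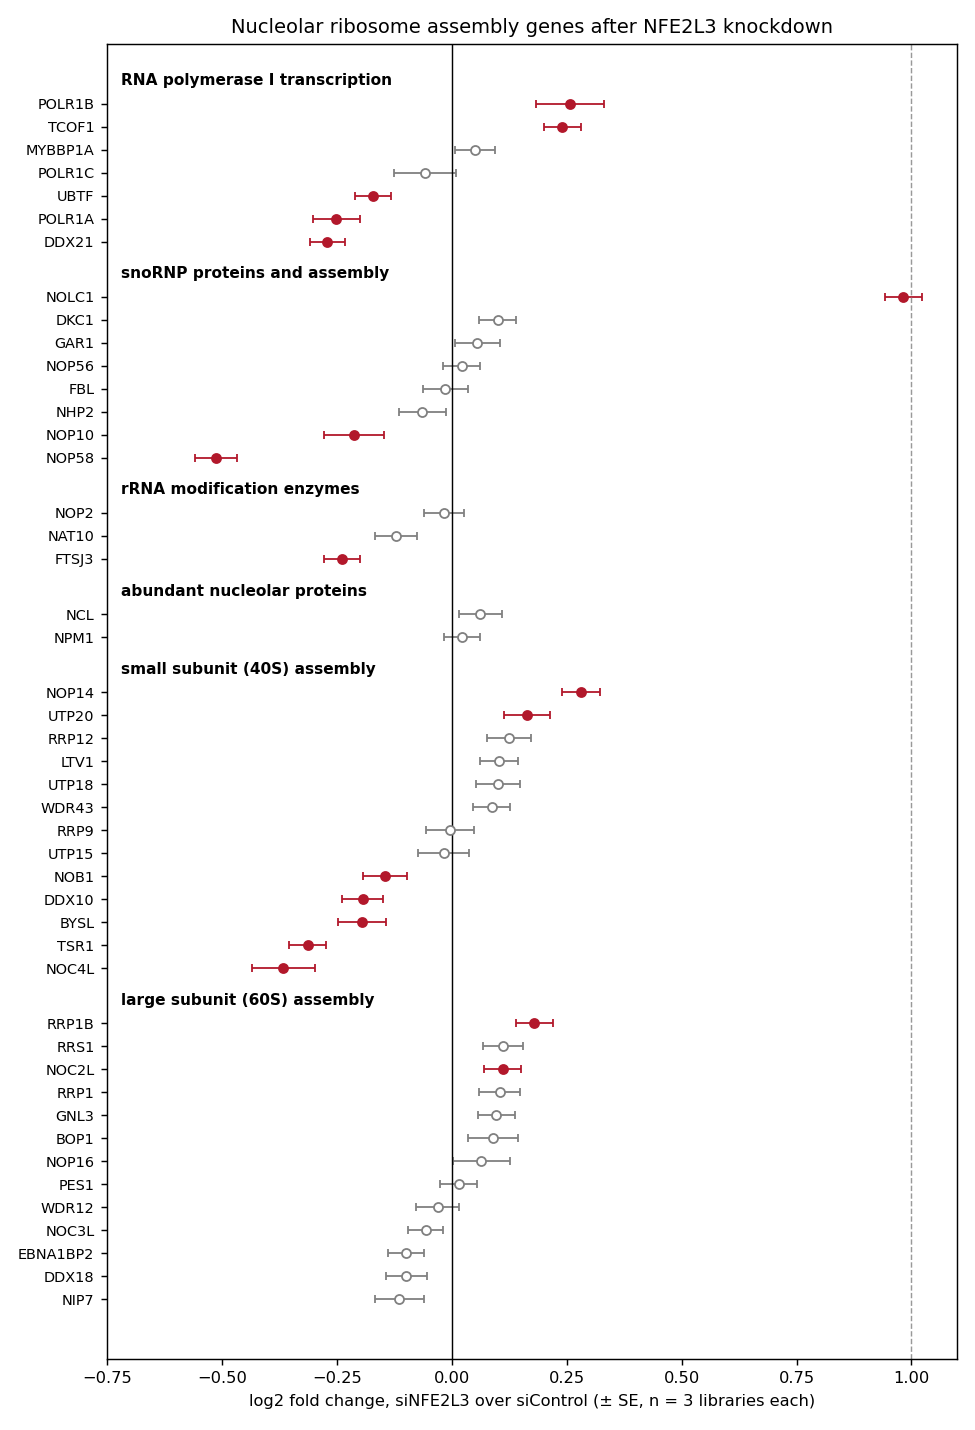
Log2 fold change (siNFE2L3 over siControl) of each of the 46 nucleolar genes with its standard error (SE), grouped by role, with filled points for the 18 genes called at an adjusted p under 0.05 and open points for the 28 others (3 libraries per group). NOLC1 lies at 0.98, just short of the dashed line of a 2-fold change, and NOP58 lies lowest at -0.51.

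**Figure D2:**
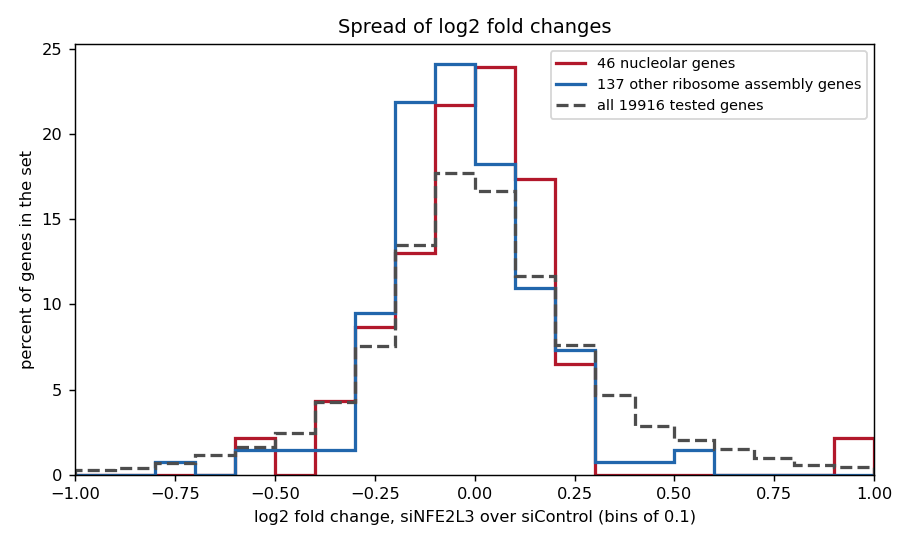
Percent of genes in each bin of 0.1 of the log2 fold change (siNFE2L3 over siControl) for the 46 nucleolar genes, 137 other ribosome assembly genes and all 19916 tested genes, with the tails beyond 1 in either direction left out. The 3 outlines peak within 0.1 of 0, and NOLC1 alone makes the red step at 0.9 to 1.

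NOLC1 (also called Nopp140) is a nucleolar phosphoprotein that binds both kinds of snoRNP and moves between the nucleolus and Cajal bodies. In GRCh38 it runs from 102152176 to 102163871 on the plus strand of chromosome 10, with 3970 exon bases in 13 blocks in the authors' annotation. NOLC1 had 395, 417 and 390 CPM in siNFE2L3 libraries, against 209, 196 and 204 CPM in siControl libraries, from 11072 to 23452 counts per library. All 3 siNFE2L3 libraries lay far above all 3 siControl libraries. Its mean was 401 ± 14.6 CPM in siNFE2L3 and 203 ± 6.54 CPM in siControl cells (SD, n = 3 each), a log2 fold change of 0.98 (SE 0.0409, edgeR adjusted p = 1.11e-14) with a 95% interval of 0.90 to 1.07. Its level per exon length, in RPKM (CPM per kilobase of exon), was 101 in siNFE2L3 and 51.1 in siControl cells, which moved it to the 4th highest of the 46 genes in siNFE2L3, against the 9th in siControl.

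NAT10 did not pass the threshold. It is a gene of chromosome 11 (34105602 to 34147670, plus strand, GRCh38), with 5242 exon bases in 32 blocks. NAT10 had 93.6, 103 and 97.3 CPM in siNFE2L3 libraries, against 109, 101 and 110 CPM in siControl libraries. The groups overlapped, since siNFE2L3 replicate 2 lay above siControl replicate 2. Its mean was 98.1 ± 4.96 CPM in siNFE2L3 and 106.7 ± 4.73 CPM in siControl cells (SD, n = 3 each), a log2 fold change of -0.12 (SE 0.0457, edgeR adjusted p = 0.0525) with a 95% interval of -0.21 to -0.03. Without siNFE2L3 replicate 2 the log2 fold change was -0.16 with an adjusted p of 0.0254 in edgeR, and without siControl replicate 2 it was -0.16 with an adjusted p of 0.0155. Leaving out any other single library gave log2 fold changes of -0.115 to -0.087 with edgeR adjusted p-values of 0.108 to 0.255. The call therefore turns on the library left out. NOLC1 counts of each library were also set against its NAT10 counts, which needs no scaling between libraries. The ratio was 4.22, 4.03 and 4.005 in siNFE2L3 and 1.91, 1.93 and 1.86 in siControl libraries.

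The promoter of NAT10 is shown because NAT10 is the gene the study turns on and because it holds an E-box right at its start. An E-box is the letters CACGTG, which MYC and related factors bind. The study reports that HIF-1α binds and activates the NAT10 promoter, from chromatin immunoprecipitation, luciferase reporters and HIF-1α knockdown. A primer it lists for that immunoprecipitation spans these same letters. Which factor binds them was not tested here. The 300 bases below run from 250 before to 50 after the RefSeq start in GRCh38.p14, chr11:34105379-34105678 on the plus strand, with the E-box in capitals at position -15 from the start.

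NAT10: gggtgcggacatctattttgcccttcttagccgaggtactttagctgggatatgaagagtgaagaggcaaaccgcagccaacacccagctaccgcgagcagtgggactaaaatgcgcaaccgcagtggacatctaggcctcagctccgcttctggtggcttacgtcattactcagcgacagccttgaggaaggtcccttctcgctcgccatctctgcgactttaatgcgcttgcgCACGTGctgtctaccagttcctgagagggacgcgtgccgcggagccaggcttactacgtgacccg

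**Figure D3:**
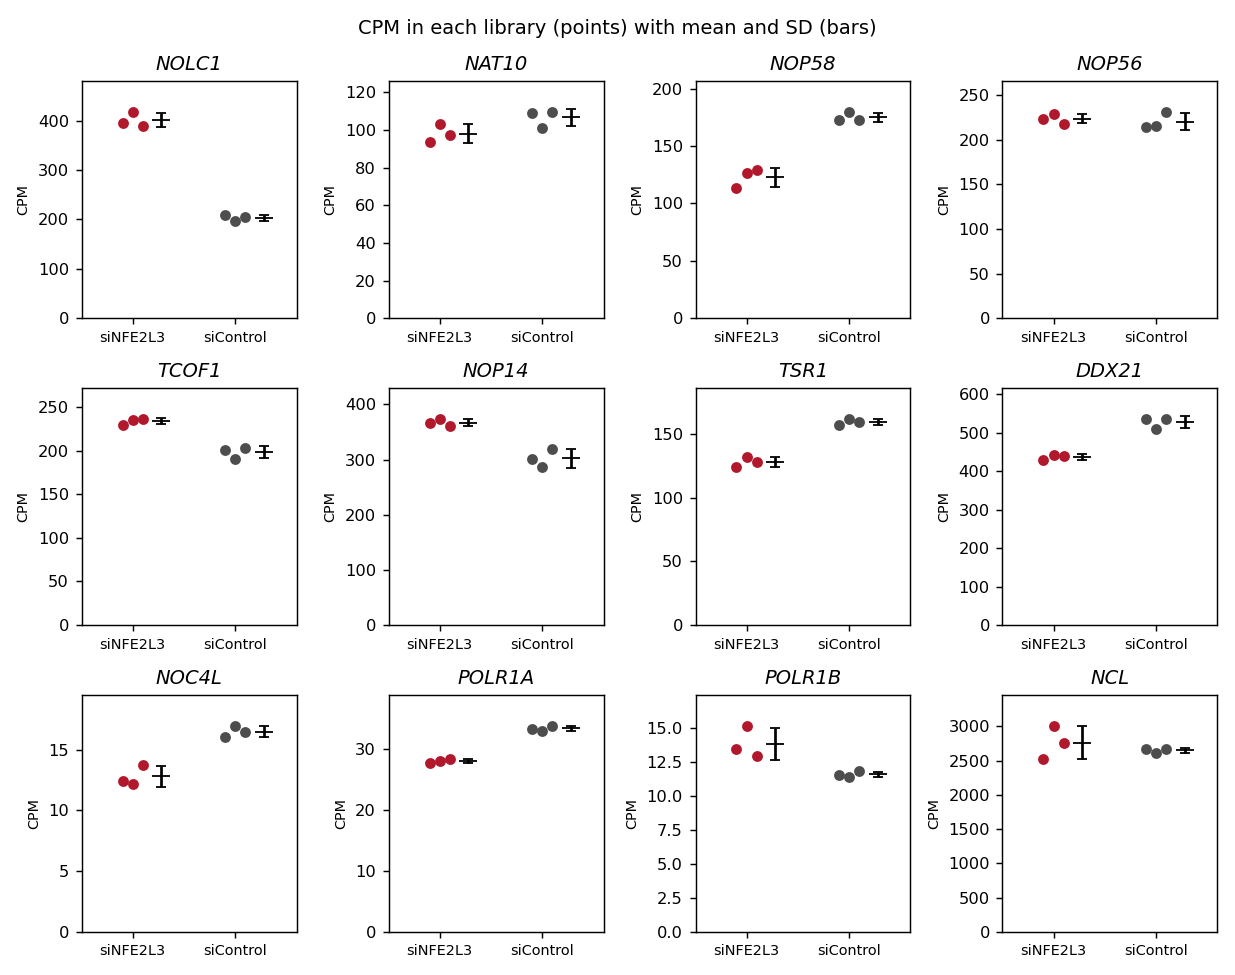
CPM of 12 nucleolar genes in each library, siNFE2L3 at the left and siControl at the right of each panel, with the mean and SD of the 3 libraries beside the points and every axis starting at 0. The points of NOLC1, NOP58, TCOF1, NOP14, TSR1, DDX21, NOC4L, POLR1A and POLR1B do not overlap between the groups, while those of NAT10, NOP56 and NCL do.

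Genes of RNA polymerase I transcription moved in both directions. Of 7 genes, 3 fell, 2 rose and 2 were not called, with a median log2 fold change of -0.06. POLR1A, the largest subunit of the polymerase, fell to 27.6, 28.02 and 28.3 CPM in siNFE2L3 libraries, against 33.3, 32.9 and 33.8 CPM in siControl libraries, a log2 fold change of -0.25 (SE 0.0506, edgeR adjusted p = 0.000494). POLR1B, which forms the catalytic core with POLR1A, rose to 13.5, 15.2 and 13.0 CPM in siNFE2L3 libraries, against 11.6, 11.4 and 11.8 CPM in siControl libraries, a log2 fold change of 0.26 (SE 0.0735, edgeR adjusted p = 0.0103). Neither gene's groups overlapped, but without siNFE2L3 replicate 2, the highest library for POLR1B, its log2 fold change was 0.19 with an edgeR adjusted p of 0.105. POLR1A and POLR1B were also the lowest of the 46 genes per exon length. Their means were 2.07 and 2.19 RPKM in siNFE2L3 and 2.46 and 1.84 RPKM in siControl cells. The order of the means was turned round, but in siNFE2L3 cells the means lay within the SD of POLR1B (0.186 RPKM). The ratio of POLR1A to POLR1B counts was 2.05, 1.84 and 2.18 in siNFE2L3 libraries and 2.87, 2.87 and 2.85 in siControl libraries.

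TCOF1 encodes treacle, a nucleolar protein related in build to NOLC1 that links the polymerase to ribosomal DNA. It rose to 230.0, 236 and 237 CPM in siNFE2L3 libraries, against 201, 191 and 203 CPM in siControl libraries, a log2 fold change of 0.24 (SE 0.0396, edgeR adjusted p = 4.92e-05). Although both rose, NOLC1 rose further, and the ratio of NOLC1 to TCOF1 counts was 1.72, 1.77 and 1.64 in siNFE2L3 libraries and 1.04, 1.03 and 1.004 in siControl libraries. DDX21, an RNA helicase that works in ribosomal DNA transcription and pre-rRNA processing, fell to 428, 443 and 439 CPM in siNFE2L3 libraries, against 536, 509.6 and 536 CPM in siControl libraries. The groups were well apart at a log2 fold change of -0.27 (SE 0.0382, edgeR adjusted p = 6e-06). DDX21 was the third most abundant of the 46 per exon length in siControl cells, at 105 RPKM, and the sixth in siNFE2L3 cells. UBTF, the upstream binding factor that holds ribosomal genes open, fell to 101 ± 0.684 CPM in siNFE2L3 cells, against 114 ± 1.16 CPM in siControl cells (log2 fold change -0.17, edgeR adjusted p = 0.00183). POLR1C, a subunit shared with RNA polymerase III, had a log2 fold change of -0.06, and MYBBP1A, a nucleolar protein bound to the polymerase, had 0.05, both uncalled.

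The snoRNP genes held both the largest rise and the largest fall of the 46. Of 8 genes, 2 fell, NOLC1 rose and 5 were not called, with a median log2 fold change near 0. NOP58, a core protein of box C/D particles, fell to 113, 126 and 129 CPM in siNFE2L3 libraries, against 173, 179.8 and 173 CPM in siControl libraries. No siNFE2L3 library came near the siControl ones, and the log2 fold change was -0.51 (SE 0.0456, edgeR adjusted p = 5.63e-09) with a 95% interval of -0.61 to -0.42. NOP56, its partner in the same particle, had 224, 229 and 218 CPM in siNFE2L3 and 215, 216 and 231 CPM in siControl libraries, and FBL, the methyltransferase fibrillarin, had 62.3, 63.2 and 56.9 CPM in siNFE2L3 and 64.5, 58.9 and 60.9 CPM in siControl libraries. The libraries of NOP56 and of FBL overlapped, with log2 fold changes of 0.02 and -0.01. The ratio of NOP58 to NOP56 counts was 0.506, 0.552 and 0.590 in siNFE2L3 libraries and 0.806, 0.834 and 0.748 in siControl libraries. The ratio of NOP58 to FBL counts averaged 2.03 ± 0.224 in siNFE2L3 and 2.86 ± 0.186 in siControl libraries (SD, n = 3 each).

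Of the box H/ACA proteins, NOP10, the smallest, fell to 14.8, 17.2 and 16.5 CPM in siNFE2L3 libraries, against 18.8, 18.3 and 19.2 CPM in siControl libraries, without overlap (log2 fold change -0.21, SE 0.0654, edgeR adjusted p = 0.0166). That call was lost without siNFE2L3 replicate 1, the lowest library (log2 fold change -0.15, edgeR adjusted p = 0.139), and without siControl replicate 3 (-0.20, edgeR adjusted p = 0.0572). DKC1, the pseudouridine synthase dyskerin, had 397, 423 and 412 CPM in siNFE2L3 and 381, 372 and 397 CPM in siControl libraries (log2 fold change 0.10, edgeR adjusted p = 0.0672). Its lowest siNFE2L3 library was level with its highest siControl library, and it was called higher in 4 of 15 alternatives, with DESeq2 (adjusted p = 0.0451), with upper quartile scaling, without siNFE2L3 replicate 1 and without siControl replicate 3 (0.0336 to 0.0473 in edgeR). GAR1 and NHP2, the other proteins of these particles, had uncalled log2 fold changes of 0.06 and -0.06.

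**Figure D4:**
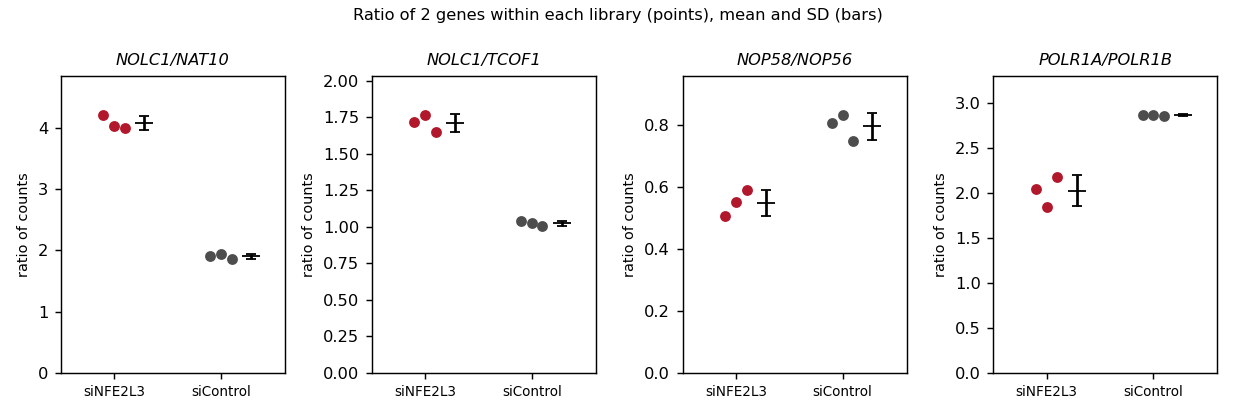
Ratio of the counts of 2 genes within each library, siNFE2L3 at the left and siControl at the right of each panel, with the mean and SD of the 3 libraries. The siNFE2L3 ratios lie above all siControl ratios for NOLC1/NAT10 and NOLC1/TCOF1, and below them for NOP58/NOP56 and POLR1A/POLR1B.

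The ratios given here were 6 pairs chosen after the values were seen, the sixth being NOLC1 to DKC1, which averaged 0.976 ± 0.0264 in siNFE2L3 and 0.530 ± 0.0169 in siControl libraries (SD, n = 3 each). In all 6 the groups did not overlap, and a two-sided exact permutation test over the libraries gave p = 0.1 for each, the smallest that 3 against 3 allows. Because the pairs were picked by these same values, neither the lack of overlap nor the test adds support.

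Of the rRNA modification enzymes, FTSJ3 fell and NAT10 and NOP2 were not called. FTSJ3, a nucleolar methyltransferase-family protein needed for pre-rRNA processing, fell to 166, 172 and 173 CPM in siNFE2L3 libraries, against 202, 197 and 205 CPM in siControl libraries, without overlap (log2 fold change -0.24, SE 0.0391, edgeR adjusted p = 4.51e-05). Of the exon bases of FTSJ3, 16.8% are also exon of PSMC5, a proteasome gene on the opposite strand, which itself had 104 CPM in siNFE2L3 and 150.0 CPM in siControl cells (log2 fold change -0.52, edgeR adjusted p = 8.8e-10). NOP2, which methylates cytosine in the RNA of the large subunit, had 57.8, 58.1 and 56.99 CPM in siNFE2L3 and 57.2, 59.1 and 58.8 CPM in siControl libraries, a log2 fold change of -0.02 with a 95% interval of -0.11 to 0.07.

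NPM1 (nucleophosmin) and NCL (nucleolin), the abundant structural proteins of the nucleolus, were the highest of the 46 per exon length. NPM1 was at 566 ± 22.0 RPKM in siNFE2L3 and 557 ± 13.8 RPKM in siControl cells, and NCL at 399 ± 35.4 RPKM in siNFE2L3 and 382 ± 5.21 RPKM in siControl cells (SD, n = 3 each). Their log2 fold changes were 0.02 and 0.06, uncalled. NCL had 2521, 3012 and 2758 CPM in siNFE2L3 libraries, on both sides of the 2674, 2607 and 2663 CPM in siControl libraries. Summed, all 46 genes made up 9711, 10572 and 10151 CPM in siNFE2L3 libraries and 9813, 9716 and 10020 CPM in siControl libraries. These sums overlap between the groups. Without NCL and NPM1 they were 5118, 5328 and 5197 CPM in siNFE2L3 libraries and 5055, 4982 and 5168 CPM in siControl libraries. These smaller sums also overlap, and they still hold NOLC1, with its mean of 401 CPM in siNFE2L3 and 203 CPM in siControl cells. They therefore do not show a rise shared by the other genes.

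**Figure D5:**
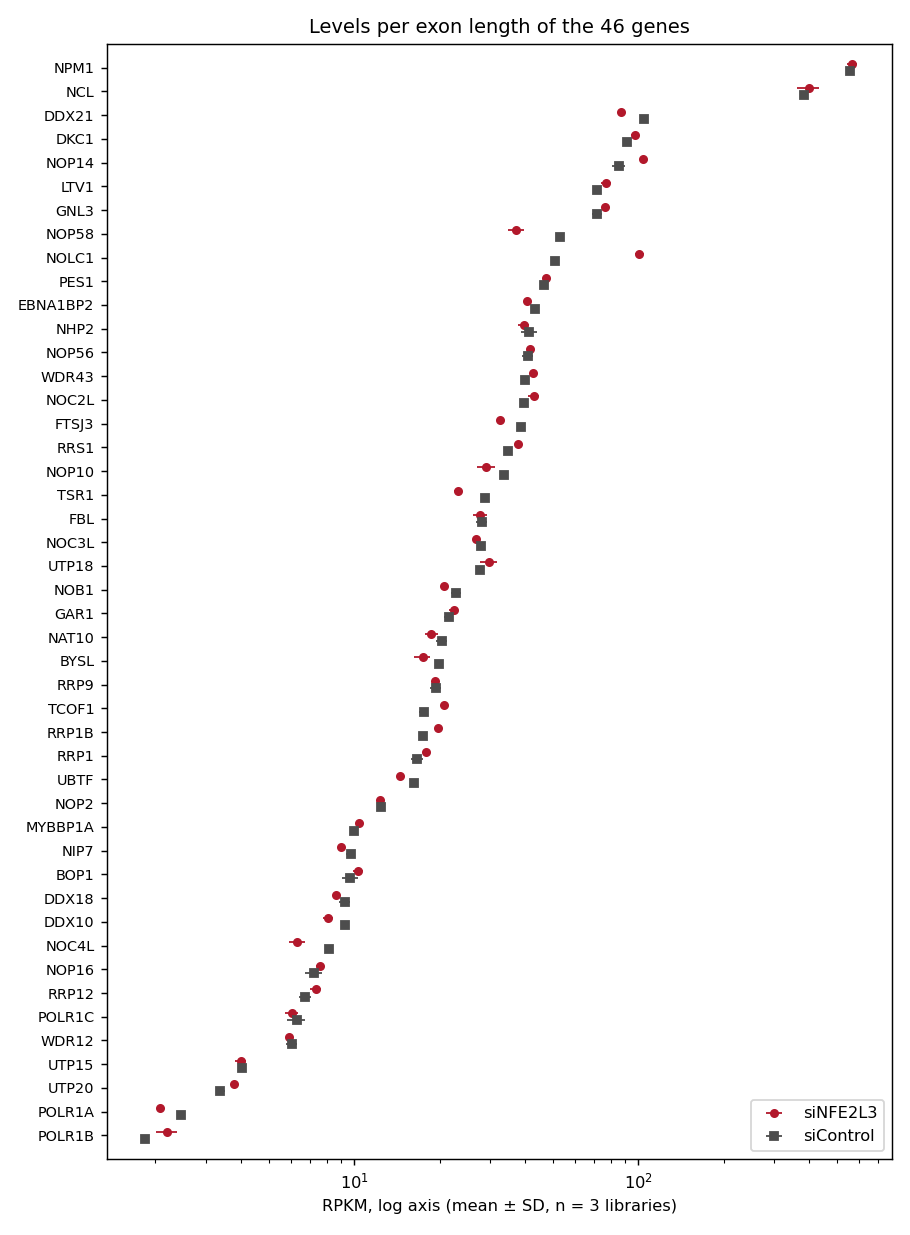
RPKM of each of the 46 genes on a log axis, mean and SD of 3 libraries, siNFE2L3 in red circles above siControl in grey squares, ordered by the siControl level. The genes run from 1.84 RPKM (POLR1B) to 557 RPKM (NPM1) in siControl cells, and NOLC1 and NOP58 show the widest gaps between the groups.

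Of 13 genes of small subunit assembly, 5 fell (38.5%), 2 rose (15.4%) and 6 were not called, with a median log2 fold change near 0. NOC4L fell to 12.5, 12.2 and 13.8 CPM in siNFE2L3 libraries, against 16.0, 17.0 and 16.5 CPM in siControl libraries (log2 fold change -0.37, SE 0.0682, edgeR adjusted p = 0.000212). NOP14, whose yeast counterpart binds that of NOC4L in the small subunit processome, rose to 367, 374 and 360.2 CPM in siNFE2L3 libraries, against 301, 286 and 319.6 CPM in siControl libraries (log2 fold change 0.28, SE 0.0419, edgeR adjusted p = 1.34e-05). In neither gene did the groups overlap. NOP14 shares 17.1% of its exon bases with NOP14-AS1 on the opposite strand, which had 121 CPM in siNFE2L3 and 97.6 CPM in siControl cells (log2 fold change 0.31, edgeR adjusted p = 1.94e-05).

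TSR1, a factor of late 40S maturation, fell to 125, 132 and 128 CPM in siNFE2L3 libraries, against 157, 162 and 159.8 CPM in siControl libraries (log2 fold change -0.31, SE 0.0401, edgeR adjusted p = 1.52e-06). The siNFE2L3 libraries were all well below the siControl libraries. SRR, which shares 20.7% of TSR1's exon bases on the opposite strand, had 21.6 CPM in siNFE2L3 and 24.8 CPM in siControl cells (log2 fold change -0.20, edgeR adjusted p = 0.0174). BYSL (bystin), which stays with the 40S precursor from the nucleolus to the cytoplasm, fell to 38.7, 41.9 and 36.8 CPM in siNFE2L3 libraries, against 44.9, 43.9 and 45.7 CPM in siControl libraries, without overlap (log2 fold change -0.20, SE 0.0515, edgeR adjusted p = 0.00564). Without siNFE2L3 replicate 3, its lowest library, the edgeR adjusted p of BYSL was 0.0611.

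DDX10, a helicase of early 40S assembly, fell to 68.6 ± 3.001 CPM in siNFE2L3 cells, against 78.4 ± 1.95 CPM in siControl cells (log2 fold change -0.19, edgeR adjusted p = 0.00192). NOB1, the nuclease that cuts the end of 18S rRNA, was at 43.9 ± 1.04 CPM in siNFE2L3 and 48.6 ± 2.02 CPM in siControl cells (log2 fold change -0.15, edgeR adjusted p = 0.0255). The call of NOB1 was the least steady of the falls, with adjusted p-values of 0.0561 to 0.120 in edgeR without siNFE2L3 replicate 1 or 3 or without siControl replicate 1 or 3. NOB1 also shares 20.2% of its exon bases with the opposite-strand gene CTD-2033A16.3, which had 5.62 CPM in siNFE2L3 and 6.67 CPM in siControl cells (log2 fold change -0.25, edgeR adjusted p = 0.0499).

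UTP20, a large scaffold protein of the processome, rose to 37.7, 38.0 and 38.2 CPM in siNFE2L3 libraries, against 32.5, 34.1 and 35.0 CPM in siControl libraries (log2 fold change 0.16, SE 0.0496, edgeR adjusted p = 0.0154). The groups did not overlap, but its edgeR adjusted p was 0.0504 to 0.0557 without siNFE2L3 replicate 2, without siNFE2L3 replicate 3 or without siControl replicate 1. The 6 uncalled genes were RRP12, LTV1, UTP18, WDR43, RRP9 and UTP15. RRP12 and LTV1, needed to export the 40S precursor, had log2 fold changes of 0.12 and 0.10, and the processome proteins UTP18 and WDR43 had 0.10 and 0.09. RRP9, a protein of the U3 snoRNP, and UTP15, which joins the earliest precursor, lay at -0.0043 and -0.02, with libraries that overlapped between the groups.

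The genes of large subunit assembly showed small changes. Of 13, 0 fell, 2 rose and 11 were not called, with a median log2 fold change of 0.06 and a range of -0.11 to 0.18. DESeq2 and limma-voom also called 0 lower, and 3 were lower at an unadjusted p under 0.05 in edgeR. Without siControl replicate 2 EBNA1BP2 was called lower, and without siControl replicate 3 DDX18. RRP1B, a nucleolar protein related to RRP1, rose to 111, 116 and 115 CPM in siNFE2L3 libraries, against 102, 102 and 99.2 CPM in siControl libraries (log2 fold change 0.18, SE 0.0403, edgeR adjusted p = 0.00152). NOC2L, whose yeast counterpart carries the 60S precursor towards export, rose to 229, 249 and 236 CPM in siNFE2L3 libraries, against 221, 215 and 225 CPM in siControl libraries (log2 fold change 0.11, SE 0.0407, edgeR adjusted p = 0.0465). Neither gene's groups overlapped, but NOC2L lost its call without siNFE2L3 replicate 2 (edgeR adjusted p = 0.259), without siNFE2L3 replicate 3 (edgeR adjusted p = 0.107) and without siControl replicate 2 (edgeR adjusted p = 0.156). RRP1 itself had a log2 fold change of 0.10, not called.

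The PeBoW complex, in which PES1, BOP1 and WDR12 act together in 60S maturation, showed no called change. PES1 had 212, 221 and 213 CPM in siNFE2L3 and 205, 215 and 219 CPM in siControl libraries, and its log2 fold change of 0.01 had a 95% interval of -0.07 to 0.10. BOP1 had a log2 fold change of 0.09 (95% interval -0.02 to 0.20) and WDR12 one of -0.03 (95% interval -0.13 to 0.06). Of the other 60S factors, GNL3 (nucleostemin) and RRS1 had 0.10 and 0.11, NOP16 had 0.06, and NOC3L, EBNA1BP2, the helicase DDX18 and NIP7 had -0.06, -0.10, -0.10 and -0.11, none of them called. Of the uncalled 60S genes, the libraries of RRS1 and RRP1 (higher) and of NOC3L, EBNA1BP2, DDX18 and NIP7 (lower) did not overlap, with edgeR adjusted p-values of 0.0617 (RRS1) to 0.307 (NOC3L).

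Over the 28 uncalled genes, log2 fold changes ran from -0.12 to 0.12. Their 95% intervals reached down to -0.22 (NIP7) and up to 0.22 (RRP12), so changes beyond about 1.17-fold lie outside every one of these intervals. Of the 28, 12 had an unadjusted p under 0.05 in edgeR, 4 with lower and 8 with higher values in siNFE2L3. The share of all tested genes at that unadjusted threshold was not taken, so this count is not a trait of the 28. Over all 46 genes, the libraries did not overlap for 15 that were lower and 12 that were higher in siNFE2L3, beside 20.4% lower and 19.1% higher of all tested genes. The share without overlap was not taken for genes as abundant as the 46, so these counts are not a trait of the 46. Single libraries weighed on these counts. siNFE2L3 replicate 2 was the highest of the 6 libraries for 15 of the 46 genes, siControl replicate 3 for 13, and siNFE2L3 replicate 1 the lowest for 14. Without siNFE2L3 replicate 2, the genes called higher dropped to 4, with NOC2L, UTP20 and POLR1B lost, while all 11 falls were kept. Without that library the shares of all tested genes also dropped, to 11.1% lower and 9.98% higher, in place of 14% and 12.7%.

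Of the 46 genes, 22 share exon bases with another gene, 17 with one on the opposite strand, and whether the authors counted by strand is not stated. Beside FTSJ3, NOP14, TSR1 and NOB1, at least 10% of exon bases were shared for NHP2 (27.4% with RMND5B), LTV1 (27.7% with RP3-468K18.7, on the same strand), POLR1C (13.7% with RP3-337H4.9), EBNA1BP2 (18.8% with CFAP57), RRS1 (11.4% with ADHFE1, same strand) and NOP16 (12.0% with ARL10). The values of these 10 genes are uncertain to that extent, and how far the overlap enters them was not tested. NOLC1 and NAT10 share no exon bases with another gene in the table, and NOP58 shares 1.88% of its own with SNORD70. Pseudogene rows were found for 10 of the 46 genes, and the most, 45, belong to NPM1, where they sum to 0.914% of its CPM in siNFE2L3 and 1.02% in siControl cells. The pseudogene rows of DDX10, DDX18, LTV1, NCL, NHP2, NIP7, NOC2L, NOP56 and PES1 sum to at most 0.522% of their gene.

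A further 137 ribosome assembly genes outside the 46, listed by the same roles, leaned lower. Of these, 40 fell (29.2%) and 21 rose (15.3%), with a median log2 fold change of -0.05, beside 14% and 12.7% of all tested genes and 23.4% and 19% of those at least as abundant as the lowest of the 46. The lowest of the 137 averaged 4.36 CPM over the libraries, against 12.8 CPM for the lowest of the 46, so those abundant genes are not matched to the 137. No gene rose among 11 of RNA polymerase I transcription (4 fell), 9 of snoRNPs (3 fell), 8 of rRNA modification (3 fell) and 15 exonuclease genes that trim rRNA ends (5 fell) in edgeR. DESeq2 and limma-voom, and edgeR at an unadjusted p under 0.05, also gave 0 rises in these 4 roles, while DESeq2 called 3 falls of RNA polymerase I transcription and 1 of snoRNPs. The 40S and 60S factors went both ways, with 14 falls and 11 rises among 45 and with 11 falls and 10 rises among 49. Without siControl replicate 3, the 40 falls became 26, while the share of all tested genes that fell was 11.3% in place of 14%. With upper quartile scaling the list split into 30 falls and 24 rises.

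The largest falls in that list were METTL5, NIFK, TMA16, RSL1D1 and NVL. METTL5, which methylates adenine in 18S rRNA, fell to 78.7, 81.1 and 81.9 CPM in siNFE2L3 libraries, against 132, 137 and 126 CPM in siControl libraries (log2 fold change -0.71, SE 0.0428, edgeR adjusted p = 6.92e-12). NIFK, a nucleolar protein that binds the proliferation antigen Ki-67, had a log2 fold change of -0.60 (edgeR adjusted p = 6.45e-10). METTL5 shares 20.0% of its exon bases with SSB on the opposite strand, which had 199.9 CPM in siNFE2L3 and 407 CPM in siControl cells (log2 fold change -1.03), and NIFK shares 7.52% with NIFK-AS1 (log2 fold change -0.59). TMA16, whose yeast counterpart sits on 60S precursors, had -0.59 (edgeR adjusted p = 1.19e-06). RSL1D1, which carries a ribosomal L1 domain, had -0.47, and NVL, an ATPase that remodels 60S precursors, had -0.44, with edgeR adjusted p-values of 7.22e-10 and 2.6e-07.

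The largest rises were MPHOSPH10, ESF1, DHX37, DDX51 and MDN1. MPHOSPH10, a partner of the U3 snoRNA, rose to 131, 141 and 136 CPM in siNFE2L3 libraries, against 95.7, 99.98 and 86.4 CPM in siControl libraries (log2 fold change 0.53, SE 0.0484, edgeR adjusted p = 7.73e-09). ESF1, a pre-rRNA processing factor, also had 0.53 (edgeR adjusted p = 1.17e-08), with 185, 197 and 199 CPM in siNFE2L3 and 139, 142 and 122 CPM in siControl libraries. In both genes every siNFE2L3 library was above every siControl library. DHX37, the helicase that frees U3 from the processome, had 0.44, DDX51, a helicase of 60S assembly, had 0.38, and MDN1 (midasin), a very large ATPase of the 60S pathway, had 0.28, with edgeR adjusted p-values of 1.49e-05, 0.000468 and 4.81e-05.

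Promoters of the nucleolar genes were read for 3 short motifs, in the window from 250 bases before to 50 after the RefSeq start (GRCh38.p14), on both strands. An entry was matched by symbol for 38 of the 46 genes, not for NOLC1, NOP58, TCOF1, RRP12, RRP1B, BOP1, RRS1 and DDX18. The E-box CACGTG lay in 18 of the 38 promoters (47.4%), beside 8.77% of all 27305 genes in the table of promoters and 12.4% of the 11161 of them tested here. All 18 genes had an E-box within 50 bases of the start. Genes that fell and genes that rose are both among them, and a window is printed for each of the called ones, NOP10 with its pair of E-boxes, with 10 bases on either side and the motif in capitals. DDX21, BYSL and NOP10 fell, and NOP14 and UTP20 rose.

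NOP14 (chr4:2963376-2963401, minus strand): cgcggcccggCACGTGtcttagggta
UTP20 (chr12:101280085-101280110, plus strand): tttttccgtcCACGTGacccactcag
DDX21 (chr10:68956606-68956631, plus strand): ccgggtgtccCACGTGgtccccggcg
BYSL (chr6:41921517-41921542, plus strand): cttcagtcccCACGTGcgatccttcc
NOP10 (chr15:34343132-34343157, minus strand): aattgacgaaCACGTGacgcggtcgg
NOP10 (chr15:34343291-34343316, minus strand): agggacactcCACGTGttttagcctg

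Of the 18 genes with an E-box, 3 fell, 2 rose and 13 were not called, with a median log2 fold change of 0.01. Of the 20 without it, 7 fell, 2 rose and 11 were not called, with a median of -0.04. The core of the antioxidant response element, TGACNNNGC, which cap'n'collar factors bind with small MAF proteins, lay in 4 of the 38 promoters (10.53%, FTSJ3, NCL, NHP2 and NOB1), beside 16.1% of all genes in the table and 19.2% of those tested. NCL and NHP2, which hold it too, were not called. FTSJ3 and NOB1, the called genes that hold it, both fell. Both share exon bases with opposite-strand genes that also fell (PSMC5 and CTD-2033A16.3), and the call of NOB1 was not steady. Whether NFE2L3 binds these letters was not tested. The core is shown for FTSJ3 and NOB1 as the strand with the core letters in capitals.

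FTSJ3 (chr17:63827654-63827682, minus strand): agggcggcgcTGACACAGCagatccggtc
NOB1 (chr16:69755091-69755119, minus strand): ccccaaggttTGACCCCGCccacacttct

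The letters GTCACNCT, the common sequence named in the study for NFE2L3 sites, lay in none of the 38 windows, beside 4.18% of all genes and 4.44% of those tested. A match in these letters is a description of the window, and its absence says only that the letters are not there. The motifs can share letters, since an E-box followed by AC holds the first letters of the antioxidant core, and the reverse complement of GTCACNCT ends in them.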

How the data were processed

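RNA-seq of poly(A) RNA from 786-O cells was analysed in 6 libraries, 3 siNFE2L3 and 3 siControl, grouped by the sample labels. Per the submitters' processing notes and the study's methods, the authors used Trimmomatic 0.36 for trimming, merged reads of a shared molecular identifier, aligned with STAR 2.5.3a and counted over exons by featureCounts (Subread 1.5.1). The strand setting was not found in the sources used here. The deposited values are raw counts per gene in GRCh38, with the exon length of each gene, and the authors' own test used edgeR 3.12.1. Of counts from 1 to 29, 67.6% to 69.9% were even, against 52.2% to 53.5% of higher counts, and halved counts were therefore tried. The instrument is DNBSEQ-T7 in the labels and Illumina in the study's methods.

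Genes were kept by filterByExpr (minimum count 10), TMM-scaled and compared by edgeR 4.0.16 (quasi-likelihood F test, R 4.3.3) without a block. The SE was the log2 fold change over the square root of F. CPM and RPKM used TMM library sizes and the exon lengths. Promoters came from RefSeq (GRCh38.p14), read in Python. In counts simulated for siNFE2L3 against siControl over 19620 genes, 66.7% of genes changed 1.2-fold were recovered and 100% of those changed 1.5-fold or 2-fold, and 1.69% of 178 calls were unchanged genes. Only 75 genes were changed 1.2-fold, 75 were changed 1.5-fold and 50 were changed 2-fold. Their spread followed a trend over all genes in place of each gene's own. The data had 2783 falls and 2537 rises, so these simulated shares need not hold for the data. Alternatives were RLE, upper quartile and unscaled totals, DESeq2 1.42.0, limma-voom (limma 3.58.1), other filters, halved counts, a replicate block, leaving out each library and a test of changes beyond 1.2-fold. The 46 genes, the 137 further genes and the alternatives were chosen with earlier results of these data known. Values in every library were given for NAT10, NOLC1 and up to 8 called rises and 8 called falls of the 46 with the largest log2 fold changes, and from the further genes the 5 largest called rises and falls were named. Per-library values of other genes, and the ratios, were chosen after the values were seen.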

Additional observations from a re-analysis of the deposited data

How the results depend on the processing

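NOLC1 was called higher in every one of 15 alternatives and in the test against a fold of 1.2, at log2 fold changes of 0.952 to 1.003 without each library in turn, and it passed a fold of 2 with upper quartile scaling, without siNFE2L3 replicate 3 and without siControl replicate 1, which made 1 gene past 2-fold in place of 0. NAT10 (adjusted p 0.0525 in edgeR) passed the threshold with library totals only (log2 fold change -0.13, adjusted p 0.0271) and with no filter (-0.12, adjusted p 0.0411), and lay at -0.161 to -0.087 without each library in turn. NAT10 was called in 4 of 15 alternatives, and with upper quartile scaling its edgeR adjusted p was 0.120. The 11 falls and 7 rises became 1 and 1 in the test against a fold of 1.2 (NOP58 and NOLC1), and the rises became 13 with upper quartile scaling. Without each library in turn there were 9 to 13 falls and 4 to 10 rises, beside 10.8% to 14.2% lower and 9.62% to 12.8% higher of all tested genes. In the list of 137 genes the test against a fold of 1.2 left 5 falls and 3 rises, and over all tested genes 451 and 428, in place of 2783 and 2537. Without each library in turn the falls in that list numbered 26 to 40, and the rises 17 to 22. The cause of these shifts was not tested. Upper quartile scaling moved the median of all genes by 0.02 on the log2 scale.

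The direction turned only for uncalled genes near 0. With upper quartile scaling FBL (0.0052), NOP2 (0.0022), UTP15 (0.0017) and RRP9 (0.0157) were above 0. Without each library in turn FBL ran from -0.0469 to 0.0297, NCL from -0.00469 to 0.124, NPM1 from -0.000325 to 0.0541, UTP15 from -0.0387 to 0.0206, RRP9 from -0.0334 to 0.0304, WDR12 from -0.0608 to 0.00228 and PES1 from -0.0112 to 0.0344. Other uncalled genes passed the threshold in some alternatives, RRP12, RRS1, LTV1, GNL3 and RRP1 (higher) with upper quartile scaling, RRP12 and RRS1 with halved counts, EBNA1BP2 (lower) with library totals, and UTP18, NCL, GNL3, RRP12, EBNA1BP2 and DDX18 without single libraries. The replicate numbers gave no sign of pairing. Correlations of deviations were -0.07 to -0.02 between libraries of the same number, and 0 of 3 siNFE2L3 libraries correlated best with their own. These deviations are from means of 3 libraries and sum to 0 within a group, so the check cannot settle whether the libraries were paired. With a replicate block 11 genes fell and 6 rose, NOC2L being lost, and NAT10 had an adjusted p of 0.0999 in edgeR.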

Other observations

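Introns and exons of 7 of the nucleolar genes hold rows for 17 small nucleolar RNAs and all lay under 5 CPM. SNORD57, inside NOP56, was the highest of them at 4.69 CPM in siNFE2L3 and 3.82 CPM in siControl cells (log2 fold change 0.30, edgeR adjusted p = 0.0791). SNORD86, also inside NOP56 on the same strand, had 1.36 CPM in siNFE2L3 and 0.884 CPM in siControl cells (log2 fold change 0.62, edgeR adjusted p = 0.025). All 72 bases of SNORD57 and all 86 bases of SNORD86 are exon of NOP56 as well. Reads of these rows and those of NOP56, which had a log2 fold change of 0.02, therefore cannot be told apart by position. These rows were looked at after the values of their host genes were known.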
